A study of Mus musculus with 21 samples.

Results

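Lyve1 and 6 marker genes of border-associated macrophages (Mrc1, Cd163, Pf4, F13a1, Cbr2 and Stab1) were followed across primary mouse cortical neurons treated with AdipoRon, an agonist of the adiponectin receptors. The 7 genes were selected by symbol from the gene column of the deposited tables, where all 7 were listed in all 4 tables, among 19399 genes shared by them. Lyve1 was included because its response to AdipoRon had been seen in these data, so its difference between AdipoRon and DMSO is a description and carries no test. RNA had been sequenced from 21 cultures, of which 5 were Tau neurons with DMSO, 5 Tau neurons with AdipoRon, 5 WT neurons with DMSO and 6 WT neurons with AdipoRon. Tau neurons carried hTau P301S, a human tau cDNA with a disease mutation driven by the prion promoter, were seeded with pre-formed tau fibrils on day 7 in vitro and were cultured for 18 more days. The methods describe seeding for the transgenic neurons only, whereas the study's results date the RNA of both genotypes from seeding. Whether WT neurons were seeded is therefore unsure. If they were not, transgene and seeding cannot be told apart in a comparison of Tau with WT. Both genotypes came from the cortices of newborn (P0) pups after removal of the meninges, and all cultures received AraC, which removes dividing glial cells. AdipoRon or its vehicle DMSO was given for 24 h. The dose was 10 μM in the sample tags and in the study's methods, although the treatment text of the same labels has the unit as mM.

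Border-associated macrophages live in the meninges, around blood vessels and in the choroid plexus, at the edges of the brain, whereas microglia populate its tissue. They take up debris and proteins through scavenger receptors and are recognised by the receptors Mrc1, Cd163 and Stab1 together with Pf4, F13a1 and Cbr2. Lyve1 encodes a cell surface receptor for hyaluronan that is best known from lymphatic endothelium and that also marks a subset of these macrophages.

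The measurement used was the mean expression of each gene in log2 CPM, the log2 of counts scaled to library size, of which the authors give 1 value per gene and table. Each table joins 2 groups, so its mean is a pool: DMSO (10 cultures of both genotypes), AdipoRon (11 cultures of both genotypes), Tau (10 cultures with either treatment) or WT (11 cultures with either treatment). Pools give no spread between cultures, so no error and no test stand behind the values below, and the depth of each culture is unknown. Sample labels named the table of WT neurons for 0 of the 21 cultures and named the DMSO table for the 6 WT cultures with AdipoRon as well. Groups of the tables were therefore taken from the comparison each is named after. With each group weighted by its number of cultures, the DMSO and AdipoRon pools together gave the same total as the Tau and WT pools together, to within 0.02 on the log2 scale for 99.7% of the 19399 genes (SD 0.0049). Neurons dominated the cultures, since Rbfox3, Map2, Tubb3 and Snap25, which mark neurons, had levels of at least 7.59 log2 CPM in every pool.

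Lyve1 had a mean level of 3.86 log2 CPM in the DMSO pool and -0.28 in the AdipoRon pool, which is 14.6 against 0.824 CPM. In the Tau and WT pools, each of which mixes both treatments, its level was 2.86 and 2.93 log2 CPM. Lyve1 was therefore high with DMSO and low with AdipoRon, while the genotype pools lay together in between. Its gene lies on chromosome 7, from 110850607 to 110862953 (RefSeq annotation of GRCm38.p6, the assembly also called mm10).

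Stab1, which encodes the scavenger receptor stabilin-1, was the most abundant member, at 6.42 log2 CPM in the DMSO, 6.62 in the AdipoRon, 6.01 in the Tau and 6.87 in the WT pool. Mrc1, the mannose receptor CD206, had 3.56, 3.98, 3.43 and 4.05 log2 CPM in the same order. Both were slightly higher with AdipoRon and lower in the Tau pool. Pf4, a chemokine that platelets also release, had a level of 0.11 log2 CPM in the DMSO pool, 0.60 in the AdipoRon pool, 0.01 in the Tau pool and 0.65 in the WT pool. Cbr2, a carbonyl reductase, had -1.32, -0.66, -1.46 and -0.60 log2 CPM in that order. These 4 genes shared 1 order of the pools, with WT highest, AdipoRon next, then DMSO, and Tau lowest.

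Cd163, the scavenger receptor for haemoglobin bound to haptoglobin, had -0.89 log2 CPM in the DMSO pool, -2.09 in the AdipoRon pool, -1.15 in the Tau pool and -1.67 in the WT pool. F13a1, the A subunit of coagulation factor XIII, had -0.45, -0.89, -0.19 and -1.26 log2 CPM in the same order. F13a1 had the reverse of the order above, and Cd163, highest with DMSO and lowest with AdipoRon, had neither. Both were scarce: the lowest level listed for any gene was -2.85 log2 CPM in the AdipoRon table, so Cd163 stood less than 1 log2 unit above the bottom of it.

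**Figure D1:**
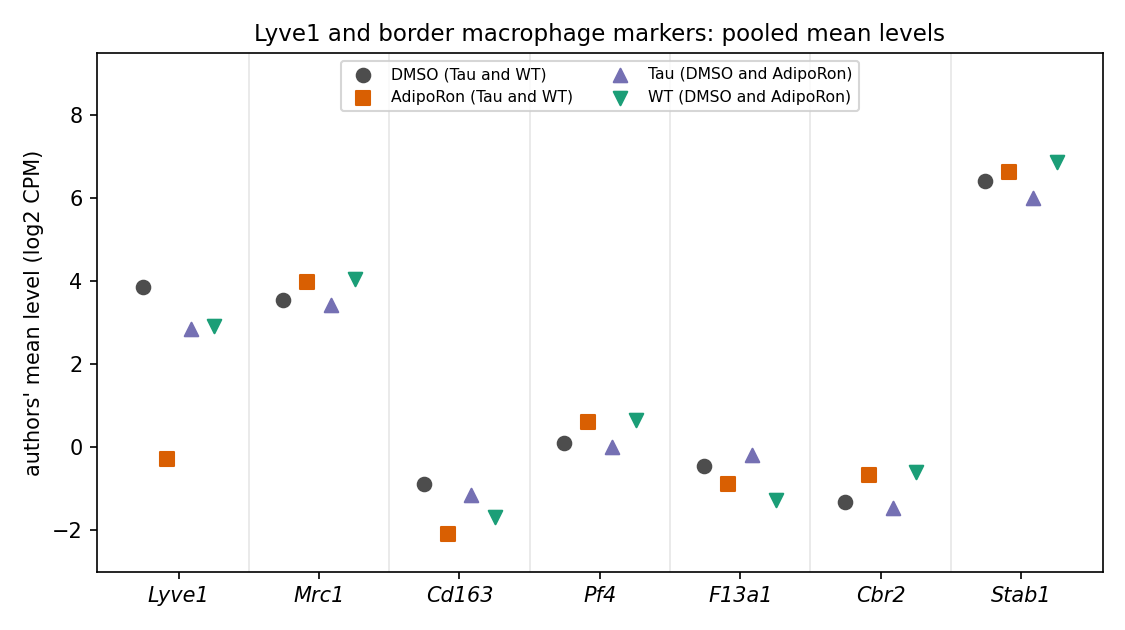
Mean level (log2 CPM, as deposited) of Lyve1 and 6 border macrophage markers in 4 pools of cultures: grey circles for DMSO, orange squares for AdipoRon, purple triangles for Tau and green triangles for WT neurons, with 1 point per pool and no error available. Lyve1 drops from 3.86 with DMSO to -0.28 with AdipoRon, while Stab1 and Mrc1 are slightly higher with AdipoRon.

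Divided by the length of the canonical transcript (GENCODE vM39, which gave a length for 89.2% of genes in the DMSO table), Lyve1 was the second of the 7 genes in the DMSO pool, at 3.52 CPM per kb. Stab1 was above it at 10.7 CPM per kb and Mrc1 below it at 2.15. Pf4 (0.724), Cbr2 (0.360), F13a1 (0.186) and Cd163 (0.122 CPM per kb) followed. In the AdipoRon pool Lyve1 was the fifth, at 0.199 CPM per kb, below Stab1 (12.3), Mrc1 (2.88), Pf4 (1.02) and Cbr2 (0.568) and above F13a1 (0.137) and Cd163 (0.0533). The order of the other 6 genes was the same in both pools. Among the genes with a length in all 4 tables, Lyve1 was at percentile 38.3 in the DMSO pool and 4.28 in the AdipoRon pool. Over the genes of each table, which differ in number, it was at percentile 39.3 and 7.69. Without a spread between cultures it could not be said which neighbours in this order differ.

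The question was whether Lyve1 moved with the cell type it can mark. By the study's reporting summary, cultures from the same animal went into both treatments, so the DMSO and AdipoRon pools share animals but no culture. The sharing is incomplete, as WT neurons had 6 cultures with AdipoRon and 5 with DMSO, and the pooled means do not pair cultures. Between the DMSO and AdipoRon pools the log2 level of Lyve1 differed by -4.14, so that 5.66% of its DMSO level was left. Of the 19399 genes, 2 had a lower difference. Mrc1 differed by 0.42, Pf4 by 0.49, Cbr2 by 0.66 and Stab1 by 0.21 on the log2 scale, all higher with AdipoRon. Cd163 (-1.19) and F13a1 (-0.44) were lower with AdipoRon. Lyve1 thus shared its direction with 2 of the 6 markers and not with the other 4, which included the most abundant ones. Over all genes 44.5% were lower in the AdipoRon pool, so this count of directions does not by itself set the markers apart from other genes.

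Of the 6 markers without Lyve1, 1 was at least 2-fold lower in the AdipoRon pool, the scarce Cd163, where 1.74% of all genes were. Lyve1 also passed this limit, but it was included for this response and is not set against that share. None of the 7 was at least 2-fold higher, against 0.68% of all genes. Over the 6 markers without Lyve1, the median difference was 0.31, against 0.03 over all genes, whose percentiles 5 and 95 were -0.57 and 0.47. Mrc1, Stab1 and F13a1 lay between these percentiles, and Pf4, Cbr2 and Cd163 lay outside them. The summed level of these 6 markers was 100.1 CPM in the DMSO pool and 117.4 CPM in the AdipoRon pool, mostly from Stab1. Per 100 CPM of the 6 markers, Lyve1 had 14.5 CPM with DMSO and 0.702 CPM with AdipoRon. Against Mrc1 alone, the ratio of the CPM values was 1.23 with DMSO and 0.0522 with AdipoRon. In bulk RNA, fewer cells of a type and less RNA per cell cannot be told apart.

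Between the Tau and WT pools, which are drawn from the same 21 cultures in another division, Lyve1 differed by -0.07 on the log2 scale, and 28.8% of all genes had a lower difference. Stab1 (-0.86), Cbr2 (-0.86), Pf4 (-0.64) and Mrc1 (-0.63) were lower in the Tau pool, at 55.1% to 64.8% of their WT level. Cd163 (0.52) and F13a1 (1.07) were higher in the Tau pool. The markers that were lower in the Tau pool were those that were higher with AdipoRon. The divisions share groups: WT neurons with AdipoRon are in the WT and AdipoRon pools, and Tau neurons with DMSO in the Tau and DMSO pools. A level peculiar to 1 such group could give both differences and the shared order of the pools, which was not tested. Lyve1 was close to 0 between the genotype pools and far from it between the treatment pools. At least 2-fold lower in the Tau pool were 0 of the 7 members, against 0.515% of all genes, and at least 2-fold higher was 1 member, F13a1, against 0.0979%. The count of genes at least 2-fold higher depended on a small amount of CPM that edgeR adds to each gene. This amount was estimated, and the count was 19 with it and 53 without it. Without it, Cbr2 also passed 2-fold, at -1.15, as the only member lower in the Tau pool to do so.

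**Figure D2:**
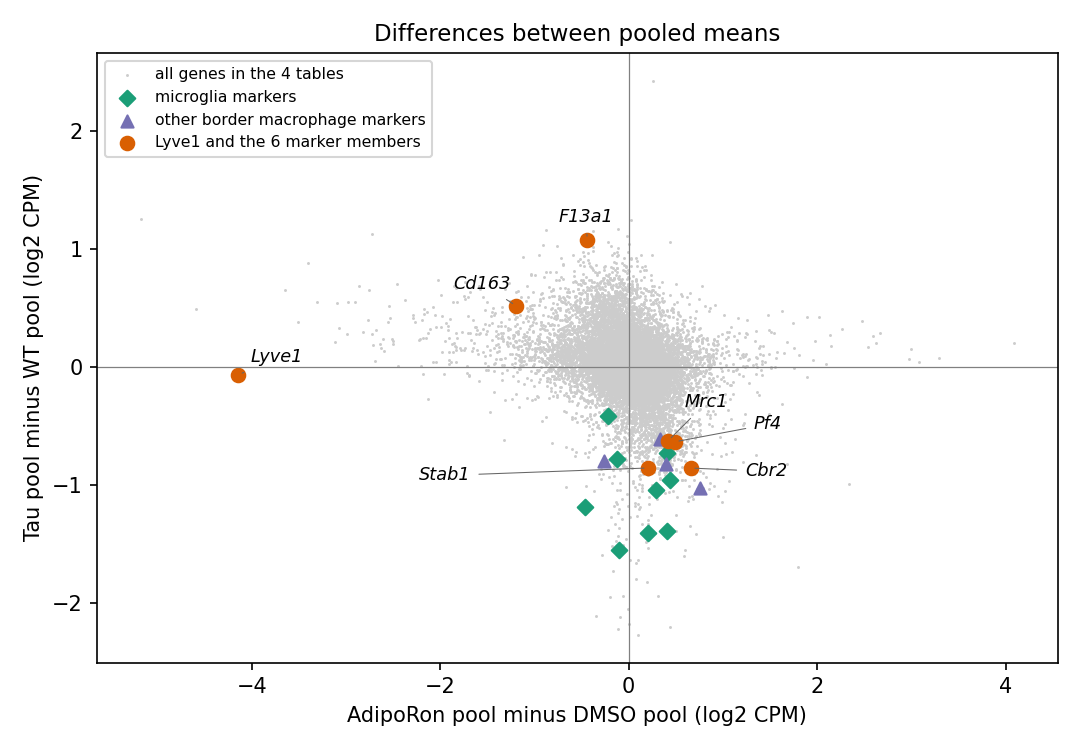
Difference between the AdipoRon and DMSO pools (x axis, log2 CPM) against the difference between the Tau and WT pools (y axis, log2 CPM) for each gene in the 4 tables (grey points), with Lyve1 and the 6 markers in orange, other border macrophage markers as purple triangles and microglia markers as green diamonds. Lyve1 lies at -4.14 and -0.07, and Mrc1, Pf4, Cbr2 and Stab1 lie with the microglia markers below 0 on the y axis.

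Both pools of a comparison mix genotypes or treatments, so the responses of Tau and WT neurons were then bounded separately. The 4 pooled means, with the number of cultures in each group, leave 1 quantity per gene free, and since no group mean can be below 0 it has a lowest and a highest value. The resulting ranges are what the arithmetic of the means allows and are not confidence intervals. A range ending at 0 or without an upper end means that the pools did not limit the ratio on that side.

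For Lyve1 these ranges were narrow on the DMSO side. Its mean lay between 12.7 and 14.5 CPM in Tau neurons with DMSO and between 14.9 and 16.8 CPM in WT neurons with DMSO. With AdipoRon it was at most 1.81 CPM in Tau and at most 1.51 CPM in WT neurons. Its ratio of AdipoRon to DMSO was therefore at most 0.143 in Tau neurons, which is a level at least 7.01-fold lower, and at most 0.101 in WT neurons, at least 9.90-fold lower. The bound for Tau neurons used the Tau and AdipoRon tables alone, for which labels and names name the same groups. Of all 19399 genes, 31 (0.16%) were bounded below 0.5 in both genotypes, and of the 7 members Lyve1 was the only one. As Lyve1 was included for this response, its place among these genes is a description. Lyve1 was thus lower with AdipoRon in both genotypes, and the pools did not show whether by the same factor.

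In WT neurons, 4 of the 6 markers could not have been as much lower with AdipoRon as Lyve1 was. The ratio of AdipoRon to DMSO was at least 0.433 for Stab1, 0.474 for Mrc1, 0.515 for Pf4 and 0.704 for Cbr2, each above the highest ratio of 0.101 that was allowed for Lyve1. Without the CPM that edgeR was estimated to add to each gene, the lowest ratio of Cbr2 was 1.14. These bounds rest on the WT table, whose groups come from its name. Upper ends were 4.47 for Stab1, 16.4 for Mrc1, 19.5 for Cbr2 and 23.9 for Pf4, so an equal and a higher level were both allowed, apart from an equal level of Cbr2 without the added CPM. For Cd163 the ratio in WT neurons lay between 0 and 2.49, and for F13a1 it was not bounded on either side. These ranges overlap that of Lyve1.

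In Tau neurons, 2 of the 6 markers were bounded. F13a1 had a ratio of AdipoRon to DMSO between 0.198 and 2.10, above the highest value allowed for Lyve1. Cd163 had a ratio between 0 and 1.36. For Mrc1, Pf4, Cbr2 and Stab1 the pools set no limit on either side, so whether they differed from Lyve1 in Tau neurons was not tested by these values.

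Between the genotypes with DMSO, the ratio of Tau to WT for Lyve1 lay between 0.758 and 0.971. With both groups of a table weighted equally, the upper end was 1.07, so the side of 1 on which it fell depended on the weights. With AdipoRon, the ratio of Tau to WT for Lyve1 was not bounded on either side, because its pooled level was 0.824 CPM and could come from either genotype. In the same comparison Cbr2 had a ratio of Tau to WT of at most 1.31, Stab1 of at most 1.76, Pf4 of at most 1.84 and Mrc1 of at most 1.95. F13a1 had a ratio of at least 0.387 with AdipoRon and of at least 0.616 with DMSO.

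**Figure D3:**
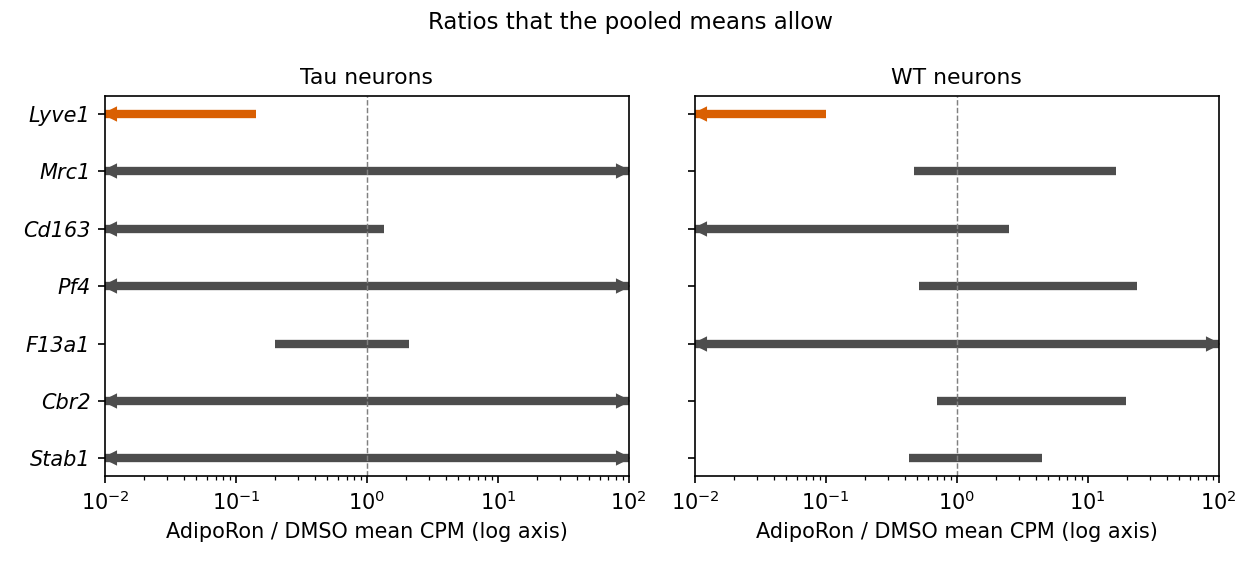
Range of the ratio of mean CPM with AdipoRon to that with DMSO (log axis) that the pooled means allow in Tau (left) and WT neurons (right), with Lyve1 in orange, a dashed line at an equal level, and arrowheads where the pools set no limit. The bar of Lyve1 ends at 0.143 in Tau and 0.101 in WT neurons, and in WT neurons those of Mrc1, Pf4, Cbr2 and Stab1 begin above 0.4.

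Of the longer list of 10 border macrophage markers, which holds the 6 members and Ms4a7, Clec12a, Folr2 and Siglec1, 7 were higher and 3 lower in the AdipoRon pool (median 0.37 on the log2 scale), and 8 were lower in the Tau pool (median -0.72). Over all genes 44.5% were lower in the AdipoRon pool and 50.3% in the Tau pool. Siglec1, a sialic acid binding receptor of macrophages, had a difference of 0.76 between the treatment pools and of -1.03 between the genotype pools. Of 9 microglia markers, 5 were higher and 4 lower in the AdipoRon pool (from -0.47 to 0.44, median 0.21), and 9 were lower in the Tau pool (from -1.56 to -0.42). Their summed level was 387.5 CPM with DMSO and 462.7 CPM with AdipoRon, so none of the treatment differences of microglia or of the longer macrophage list came near that of Lyve1, the lowest being the -1.19 of Cd163.

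Markers of lymphatic endothelium, the other cell type known for Lyve1, had levels from low to high. Pdpn, a membrane glycoprotein that many other cell types express, had 6.72 log2 CPM in the DMSO and 7.21 in the AdipoRon pool. Prox1, the transcription factor that defines these cells and that neural cells also express, had 4.45 log2 CPM in the DMSO and 4.68 in the AdipoRon pool. Flt4, the receptor of lymphatic growth factors, had 0.11 and 0.32 log2 CPM, and Ccl21a, a chemokine, had -0.14 and 0.04. All 4 markers of that list were higher in the AdipoRon pool, by 0.18 to 0.48. Of 4 markers of blood endothelium, Pecam1 (-0.99 and -1.02 log2 CPM) and Kdr (-0.37 and 0.20) were listed in all tables. The fibroblast genes Col1a1, Col1a2, Dcn and Lum, which mark the meninges, differed by -0.27 to 0.09 between the treatment pools, and all 4 were higher in the Tau pool, by 0.25 to 0.85. The 4 neuron markers were lower in the AdipoRon pool, with differences from -0.29 to -0.13, and higher in the Tau pool, by 0.07 to 0.21, opposite in direction to most of the macrophage markers in both divisions. The parts of these cell types in the level of Lyve1 were not tested.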

How the data were processed

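Polyadenylated RNA from 21 cultures had been trimmed, aligned and compared by the authors. Per the labels, STAR, mm10 and edgeR were used. The methods add RSEM, the tables are named after Rsubread, and the study's results name GRCm39, so the build behind the values is unsure and coordinates are those of the RefSeq annotation.

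The 4 deposited tables hold the authors' comparisons (log2 fold change, likelihood ratio, p-value, false discovery rate and a call), none of which was used here, and a mean log2 CPM per gene, which was. Values per culture were not analysed here, and 0 columns of such values were left out. Genes with few reads are absent from the tables by a filter that is not given in the sources used here.

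Log2 CPM values were subtracted between tables (at least 2-fold is a difference of 1) or turned into CPM for the bounds (Python 3.11.15, pandas 2.3.3). The tables were scaled separately, but their CPM totals exceed the nominal sum of CPM by at most 0.21%. A denominator under 5% of its pool gave no bound. The calculation of the bounds was checked on simulated counts that were pooled by the same arithmetic at equal depth. That check does not cover how the deposited means were computed or scaled. Members and lists were chosen with earlier results of these data known. All 7 members are named, with markers from lists by cell type.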

Additional observations from a re-analysis of the deposited data

How the results depend on the processing

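No paired analysis was possible because the tables hold no values per culture, and for the same reason a fit to counts, other scalings, other count filters and leaving out cultures were not run. The alternatives for the bounds were chosen after seeing the data. With both groups of a table weighted equally, which closes less well (SD 0.011 on the log2 scale), the highest ratio of AdipoRon to DMSO for Lyve1 was 0.128 (Tau neurons) and 0.121 (WT neurons), and its ratio of Tau to WT with DMSO lay between 0.845 and 1.07. Without the CPM that edgeR was estimated to add, these highest ratios were 0.133 (Tau) and 0.0937 (WT), and the ratio of Tau to WT reached 0.960. The count of genes at least 2-fold higher in the Tau pool was then 53. In that setting, the difference of Cbr2 between the Tau and WT pools was -1.15, past 2-fold, and its lowest ratio of AdipoRon to DMSO in WT neurons was 1.14. With the WT mean for DMSO taken from the DMSO table, the ratio of Tau to WT for Lyve1 lay between 0.774 and 0.995. No direction of a member between pools was reversed where the added CPM was removed. Restriction to genes in all 4 tables moved the percentile of Lyve1 from 39.3 to 38.3 with DMSO and from 7.69 to 4.28 with AdipoRon. Scarce genes (Cd163, F13a1 and Cbr2) rest on few reads, and depth per culture is unknown.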
